A study of Mus musculus with 6 samples.

Results

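The genes described here are the neighbours of Gnb5 on mouse chromosome 9, taken as every gene that starts between 70 and 88 Mb of the chromosome in GRCm38 and has an array probe annotated to that gene alone, with Gnb5 itself left out. They numbered 223 probes of 109 genes, among 45037 probes and 18193 genes measured. Brain tissue of 3 wild-type mice (arrays 1 to 3) and of 3 mice lacking Gb5, the product of Gnb5 (arrays 4 to 6), was compared; the tissue is cerebellum by the title of the series. Per the labels, age- and sex-matched littermates were used and the replicates are separate mice. The labels give no strain, age or sex, no clone and no targeted exon, and no further allele or agent in either group. Each value is a log2 signal of 1 probe set, called a probe here, on 1 Affymetrix array, and each difference is Gb5-deficient minus wild type.

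Gb5 is a G protein beta subunit of neurons that pairs with the RGS proteins of the R7 family and shortens signalling by Gi/o proteins. Genes on both sides of a targeted gene are inherited together with it, so that mutant and wild-type littermates can carry different copies of a whole stretch of chromosome and not of the targeted gene alone. An expression array reads each transcript through short probes, most of them near the end of the message, so that several probe sets of 1 gene are separate readings of different stretches of its transcripts. Probe sequences and genotypes of the flanking DNA were not analysed here. The neighbours of Gnb5 have varied roles: Tmod2 and Tmod3 cap actin filaments, Myo5a, Myo5c and Myo6 are myosin motors, Bmp5 is a secreted signal, Tmem30a is a subunit of lipid flippases and Col12a1 is a collagen.

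The 109 genes comprised 97 that code for protein and 12 long non-coding RNAs. Of these, 41 genes with 90 probes lay at lower coordinates than Gnb5 and 68 genes with 133 probes at higher coordinates, with starts from 5.29 Mb before (Gtf2a2, distance -5.29) to 12.40 Mb after the Gnb5 start (Tbx18). No measured gene started between -1.83 Mb (Unc13c) and -0.46 Mb (Gm16551). The window holds 107 protein-coding genes besides Gnb5, of which 97 had a probe of their own. Of the 223 probes, 173 were brighter than the 30th percentile of all probe means, which was 4.70, and 49 genes had 1 probe while 60 had 2 or more.

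Gnb5 probe 1422208_a_at read 8.80, 8.51 and 8.70 on wild-type arrays and 3.65, 3.36 and 2.96 on Gb5-deficient arrays, a difference of -5.35 that matches the genotype labels. Its second probe, 1447630_x_at, was dimmer over the 6 arrays and at -0.64 (4.88 against 4.24, limma adjusted p = 0.288). The 2 probes of Gnb5 differed in their change by 4.71 (limma adjusted p = 0.000252). The second probe was dim (28.3 percentile of all probes) and had little room to fall, so this pair restates the drop of 1422208_a_at. In the Gb5-deficient arrays alone 1447630_x_at was the brighter (mean 4.24 against 3.32). The arrays had medians from 6.48 to 6.57, and Pearson's r over all probes was 0.991 to 0.997 among the 15 pairs of arrays. Markers of Purkinje cells (3 of 5 measured, summed log2 signal 13.96 to 14.23 over the 6 arrays) and granule cells (5 of 5, 14.64 to 14.99) were bright, which matches the cerebellum of the title, while forebrain neuron markers (2 of 4) summed to 7.62 to 8.03. Summed red cell markers (5 of 6) were lower in every Gb5-deficient array (11.12 to 11.42) than in every wild-type array (11.83 to 12.07). Of these markers 3 were lower: Alas2 at -2.08, Slc4a1 at -1.9 and the brightest, Hbb-b2, at -0.60. The 2 higher ones were Hba-a2 at 0.08 and the dim Hba-a1 at 0.1. Choroid plexus markers (6 of 6, 4 lower and 2 higher) spanned 13.44 to 13.99 on wild-type arrays and 11.87 to 13.86 in Gb5-deficient arrays. No marker of either list had limma adjusted p under 0.05. Array 6, of the Gb5-deficient group, went against sex matching: its Xist probe 1427262_at read 6.64 against 11.11 to 11.35 in the other 5 arrays, and its Eif2s3y probe 1417210_at read 11.80 against 3.19 to 3.43. Counts and main results are therefore also given without array 6. In tissue RNA, fewer cells of a type and less RNA per cell cannot be told apart.

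Sequences are shown for 2 start regions beside large differences, chosen after the values were seen: that of Gm19531, inside Gnb5, and the region between Tmem30a and 4930429F24Rik. Other neighbours also have start regions in common, such as Pigb with Pigbos1 and Fbxo9 with Cilk1, and are not shown. Gm19531 is a non-coding RNA gene of 8.23 kb that lies inside the 39.6 kb of Gnb5, on the opposite strand, with its lowest coordinate 4.04 kb past that of Gnb5. Tmem30a and the non-coding RNA gene 4930429F24Rik are transcribed away from each other with 210 bases between them, so that their start regions share 290 of 300 bases. The 300 bases from 250 before to 50 after each start, from RefSeq (GRCm38.p6), are given with the CG dinucleotide in capitals. They cover chr9:75318509-75318808 (minus strand) for Gm19531 and chr9:79793381-79793680 (minus strand) for Tmem30a.
Gm19531: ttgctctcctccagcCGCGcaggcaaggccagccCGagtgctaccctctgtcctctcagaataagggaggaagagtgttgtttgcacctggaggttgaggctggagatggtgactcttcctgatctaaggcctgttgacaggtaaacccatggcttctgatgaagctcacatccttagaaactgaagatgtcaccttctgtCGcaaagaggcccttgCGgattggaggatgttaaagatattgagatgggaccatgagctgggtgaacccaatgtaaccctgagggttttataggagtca
Tmem30a: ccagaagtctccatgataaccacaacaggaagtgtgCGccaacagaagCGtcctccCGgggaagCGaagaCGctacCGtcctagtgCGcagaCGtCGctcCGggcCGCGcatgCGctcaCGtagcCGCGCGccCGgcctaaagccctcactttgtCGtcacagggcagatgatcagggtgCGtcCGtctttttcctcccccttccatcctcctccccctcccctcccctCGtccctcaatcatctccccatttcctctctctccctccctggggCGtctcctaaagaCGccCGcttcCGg

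The Tmem30a window holds 26 CG dinucleotides, a number reached by 16.9% of the 32851 promoter windows in the table, and the Gm19531 window holds 5, reached by 62.0%. The median was 20 among the 99 neighbour genes matched in the table and 7 over all windows. The neighbours are genes with an array probe, most of them protein-coding, and no background of such genes was computed. CG was searched as the letters CG, which read the same on both strands.

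Of the 223 probes, 3 passed the adjusted threshold of 0.05 in the fit of every probe (limma, Benjamini-Hochberg over 45037 probes), against 10 probes or 0.0222% in the whole table, and all 3 were lower in Gb5-deficient tissue, as were 0.02% of all probes. They were 1 probe each of Tmod3, Tmem30a and Col12a1. Another of the 10 was a Gnb5 probe. Differences of at least 0.5 were seen for 18 neighbour probes (8.07%) of 16 genes, with 1.79% over all probes, and differences of at least 1 for 9 probes (4.04%) of 8 genes, with 0.215% over all probes. Of those 9, 6 were lower and 3 higher, with 0.131% and 0.0844% over all probes. Without array 6 the counts were 20 (8.97%, with 1.74% over all probes) and 8 (3.59%, with 0.209% over all probes).

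**Figure D1:**
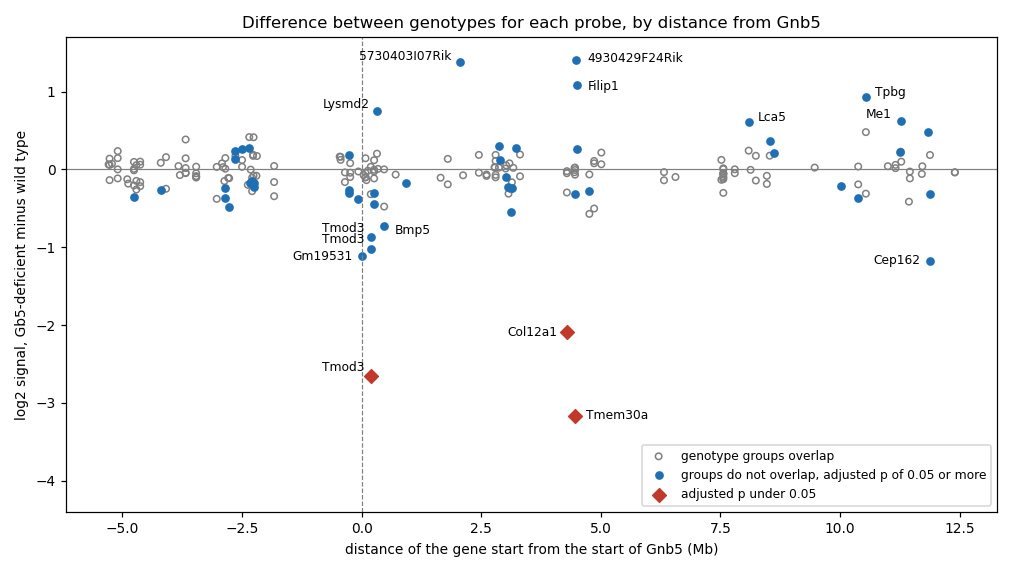
Each point is 1 of the 223 probes, placed by the distance of its gene's start from the Gnb5 start (Mb, x axis) and by its log2 difference, Gb5-deficient minus wild type (y axis). Open circles have overlapping groups, filled circles do not overlap but have adjusted p of 0.05 or more, and red diamonds have adjusted p under 0.05: the probes of Tmod3, Col12a1 and Tmem30a, at 0.19, 4.29 and 4.46 Mb.

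The genotype groups did not overlap, meaning that all 3 arrays of one genotype lay above all 3 of the other, for 53 probes (23.8%) of 42 genes, against 13.6% of all probes. Lower in Gb5-deficient tissue were 33 (14.8%, with 5.34% over all probes) and higher were 20 (8.97%, with 8.25% over all probes). Without array 6 the shares, which fewer arrays raise, were 31.8% of neighbour probes and 19.9% of all probes. The median difference was -0.04 for the neighbours and 0.01 over all probes, and the median absolute difference 0.13 and 0.10. On chromosome 9 outside the window, 1661 probes of 892 genes had 14.1% with separate groups and a median absolute difference of 0.11. An unadjusted p under 0.05 was reached by 38 neighbour probes (17%), beside 7.61% of all probes.

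By distance, groups were separate for 32.5% of the 40 probes within 1 Mb of Gnb5, 26.7% of 30 probes from 1 to 2.5 Mb, 23.3% of 90 from 2.5 to 5 Mb and 17.5% of 63 beyond. Within 1 Mb, 11 of the 13 separate probes were lower in Gb5-deficient tissue, and beyond 5 Mb 4 of 11 were. Within the window, all 18 differences of at least 0.5 lay at higher coordinates (13.5% of 133 probes, with 1.79% over all probes). The 90 probes at lower coordinates spanned -0.48 to 0.42, and a count of 0 among 90 is near the share over all probes. Groups were separate for 20% of the lower side (13 lower, 5 higher) and 26.3% of the higher side (20 lower, 15 higher), with 13.6% over all probes. Just past the lower edge, at -5.32 Mb, the dim Bnip2 probe 1431731_at (19.9 percentile of all probes) was at 0.51 with separate groups. The brightest Bnip2 probe, 1422490_at, was at -0.04 with overlapping groups. The lower side held 0 to 4 probes (0 to 4.44%) past 0.5 when 1 array was left out, with 1.74% to 3.87% over all probes. It held 2 without array 6, and 1 after array medians were subtracted. The higher side held 17 to 20 (12.8% to 15%) with 1 array left out. These shares are descriptions and the trend with distance was not tested, since probes of a gene and neighbouring genes are not independent.

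**Figure D2:**
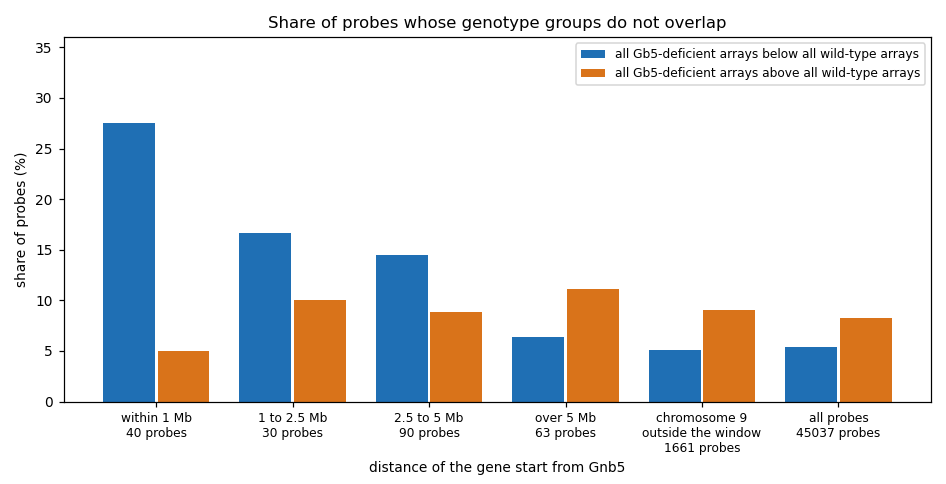
Bars give the share of probes (%, y axis) whose Gb5-deficient arrays all lay below (blue) or all above (orange) the wild-type arrays, by distance class, for chromosome 9 outside the window and for all probes. The share below is 27.5% within 1 Mb and 5.34% over all probes, and the share above is 5% and 8.25%.

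Closest to Gnb5 in the annotation was Gm19531. Its probe 1455632_at read 6.66, 6.63 and 6.60 on wild-type arrays and 5.63, 5.10 and 5.83 on Gb5-deficient arrays. The groups were separate, with a difference of -1.11 (SE 0.19), which did not pass (limma adjusted p = 0.258). Because Gm19531 lies inside Gnb5, where the probe sits relative to the altered allele was not analysed here. Myo5c, whose annotated gene shares 1198 bases with Gnb5, had 1 probe with separate groups (1424933_at, -0.38) and 1 at -0.03.

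Tmod3, which encodes the tropomodulin found in most cell types, starts 191.5 kb from Gnb5 and was read by 5 probes that did not move alike. Probe 1438556_a_at read 7.40, 6.77 and 7.12 on wild-type arrays and 4.48, 4.75 and 4.09 on Gb5-deficient arrays, so that the groups lay far apart. Its mean fell from 7.10 ± 0.31 (SD, n = 3) to 4.44 ± 0.34, a difference of -2.66 (SE 0.21, limma adjusted p = 0.00447). The lower mean lies at the 26.8 percentile of all probes, under the 30th, so the drop may be limited by the dim end of the array. It passed without each array in turn, at -2.82 to -2.48. Probe 1423088_at was also below wild type in every array, at 7.40, 7.39 and 7.19 against 8.48, 8.11 and 8.46 (-1.02, adjusted p = 0.132), and so was 1423089_at (-0.87, adjusted p = 0.258). The brightest Tmod3 probe, 1455708_at, overlapped completely, at 8.43, 8.65 and 8.78 against 8.36, 8.93 and 8.67 (0.03, interval -0.33 to 0.40). The last, 1439626_at, was at -0.32 with overlapping groups.

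Tmod2, the tropomodulin of neurons, lies 0.26 Mb from Gnb5 beside Tmod3, and none of its 6 probes passed. Probe 1430153_at was lower in every Gb5-deficient array, at 9.30, 9.53 and 9.43 against 9.90, 9.82 and 9.89 (-0.45, limma adjusted p = 0.391), and 1451301_at was at -0.30, also with separate groups. The other 4 overlapped, from -0.12 to 0.12, and the brightest of them was 1435060_at, at 11.55 in both genotypes.

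Lysmd2, at 0.32 Mb, had the opposite sign: 1428626_at read 7.78, 7.50 and 7.41 on wild-type arrays and 8.39, 8.40 and 8.16 on Gb5-deficient arrays. The groups were separate, with a difference of 0.76 (SE 0.14, limma adjusted p = 0.299), and its other probe was at 0.20. Bmp5, a bone morphogenetic protein ligand at 0.47 Mb, gave 9.64, 9.35 and 9.50 against 9.01, 8.54 and 8.74 with 1455851_at, again separate but lower (-0.73, adjusted p = 0.315), while its other 2 probes were at 0.00 and -0.48 with overlapping groups. Arpp19, which encodes an inhibitor of phosphatase PP2A, held probes with separate groups in both directions. They were 1450685_at at 0.19, 1422609_at at -0.30 and 1422608_at at -0.27, none past the threshold. It was the only one of the 60 genes with 2 or more probes to do so.

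The remaining genes within 1 Mb were close to wild type. Hcrtr2, an orexin receptor, was at -0.18 on a dim probe (11.6 percentile of all probes) with separate groups, while Mapk6, which encodes the kinase ERK3, spanned -0.10 to 0.14 over 4 probes. Scg3, a secretory granule protein, was at 0.01 and Leo1, a subunit of the Paf1 complex, at -0.02. The motor gene Myo5a had probes at -0.10, 0.08 and -0.04, and the transcription factor gene Onecut1 at 0.12 and 0.16. Fam214a was at -0.16 and -0.04, Hmgcll1 at -0.07, the Bcl2 family gene Bcl2l10 at -0.07, Gm16551 at 0.17 and 4933433G15Rik at -0.14. None of these except Hcrtr2 had separate groups.

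A cluster of 3 neighbouring genes 4.46 to 4.50 Mb from Gnb5 held the largest difference among the 223 probes. Tmem30a, which encodes a subunit that flippases need to move lipids across membranes, was read by 5 probes. Probe 1443619_at read 10.60, 10.40 and 10.68 on wild-type arrays and 7.51, 7.88 and 6.80 on Gb5-deficient arrays, with no overlap. Its mean fell from 10.56 ± 0.14 (SD, n = 3) to 7.40 ± 0.55, a difference of -3.16 (SE 0.24) or 8.96-fold in signal, with limma adjusted p = 0.00366. It passed without each array in turn, at -3.41 to -2.87. The 4 other Tmem30a probes did not share this difference: the brightest, 1448340_at, read 10.93, 10.89 and 10.70 against 10.96, 10.63 and 10.90 (-0.01), and 1448339_at and 1416447_at were at -0.07 and 0.02 with overlapping groups. Only 1416446_at also had separate groups (-0.31, adjusted p = 0.621). Cox7a2, which shares 2482 annotated bases with Tmem30a, was at 0.02 and -0.04 on its 2 probes.

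On the other side of the shared start region, 4930429F24Rik read 4.17, 4.18 and 4.37 on wild-type arrays and 5.22, 6.15 and 5.57 on Gb5-deficient arrays. The groups were separate, with a difference of 1.41 (SE 0.21) that did not pass (limma adjusted p = 0.198). It passed without array 4, at 1.62 (adjusted p = 0.0451). Filip1, which encodes a protein that interacts with filamin A, lies on the opposite strand to 4930429F24Rik, and the annotated ends of these converging genes are 1.78 kb apart. Its probe 1436650_at read 4.80, 5.35 and 5.31 against 5.98, 6.32 and 6.42 (1.09, adjusted p = 0.271) and 1444075_at was at 0.26, both with separate groups. Filip1 was the only gene of the 60 with 2 or more probes whose probes were all separate in 1 direction.

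Col12a1, at 4.29 Mb, encodes a collagen of the class that binds along collagen fibrils, and its probe brightest over the 6 arrays fell. Probe 1434411_at read 6.92, 6.31 and 6.65 on wild-type arrays and 4.44, 4.74 and 4.43 on Gb5-deficient arrays. Its mean went from 6.63 ± 0.31 (SD, n = 3) to 4.54 ± 0.17, a difference of -2.09 (SE 0.18, limma adjusted p = 0.00645). The lower mean lies at the 28.0 percentile of all probes, where the size of a drop may likewise be limited. The call was lost without wild-type array 3 (adjusted p = 0.05003) and without array 6 (0.0743), at about the same difference, -2.08 and -2.04. The other 3 probes, all dimmer over the 6 arrays, overlapped between genotypes, at -0.30, -0.02 and -0.05. In the Gb5-deficient arrays alone 1440101_at was brighter than 1434411_at (mean 4.93 against 4.54). The choice of 1434411_at as the brightest probe thus rests on the wild-type arrays. Meningeal and fibroblast markers, cells that produce collagens, were all measured (10 of 10) and summed to 13.87 to 13.90 on wild-type arrays and 13.70 to 13.86 in Gb5-deficient arrays, without overlap. Of these, 6 were lower and 4 higher, none past the threshold, with mean levels from 3.78 (the dimmest) to 12.04. The nearest sums of the 2 genotypes, 13.87 and 13.86, were almost equal. The collagen genes of the list were at -0.11 (Col1a1), 0.01 (Col1a2) and 0.01 (Col3a1), and its lowest gene was Ogn at -0.56. The part of these cells in the Col12a1 result was not tested.

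**Figure D3:**
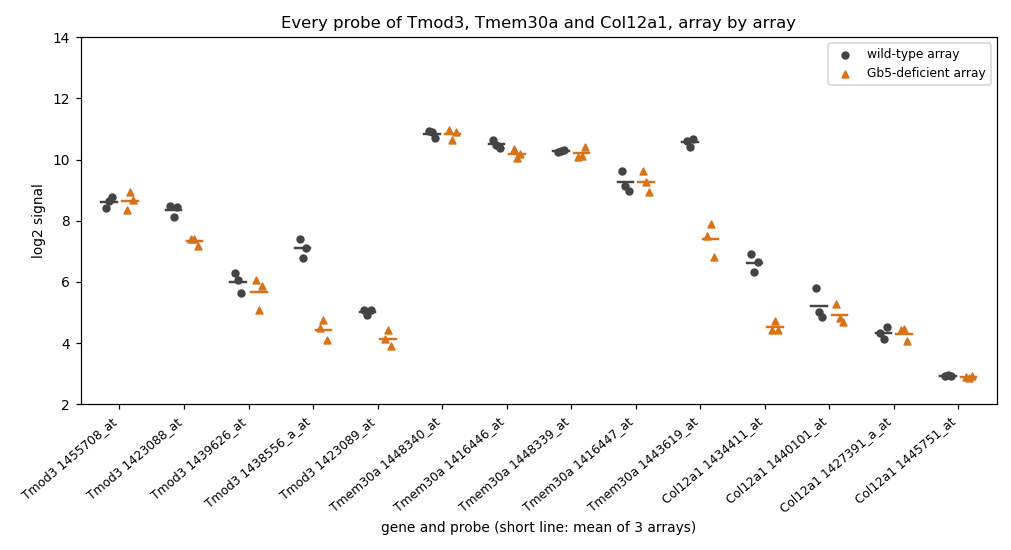
Every probe of Tmod3, Tmem30a and Col12a1 by array (log2 signal, y axis), with wild type as circles, Gb5-deficient as triangles and short lines for the means of 3 arrays. In each gene 1 probe is far lower in all 3 Gb5-deficient arrays (Tmem30a 1443619_at, 7.40 against 10.56) while 3 of the 4 other Tmem30a probes overlap between genotypes and 1416446_at, at -0.31, does not.

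Disagreement between the probes of a gene was measured by taking each other probe minus the brightest probe of the gene within each array. Tmod3, Tmem30a and Col12a1 had been picked out beforehand for such disagreement in these same arrays. Their adjusted p values therefore restate a known disagreement and are not independent support for it. Among 114 such pairs of neighbour genes, 4 passed (limma, Benjamini-Hochberg over 16752 pairs), against 6 or 0.0358% over all pairs. For Tmod3, 1438556_a_at minus 1455708_at was -1.04, -1.88 and -1.66 on wild-type arrays and -3.88, -4.18 and -4.58 in Gb5-deficient arrays, a change of -2.69 (SE 0.26, adjusted p = 0.0197). For Tmem30a, 1443619_at minus 1448340_at changed by -3.16 (SE 0.31, adjusted p = 0.0213). For Col12a1, 1427391_a_at and 1445751_at minus the brightest changed by 2.07 (adjusted p = 0.0069) and 2.04 (adjusted p = 0.0197). Both other probes were dim in both genotypes (25.3 and 3.8 percentile of all probes), so they had little room to fall and these pairs restate the drop of the brightest probe, which they share. With both probes required to be above the 30th percentile, 0 pairs of neighbour genes passed (adjusted p = 0.0786 for the Tmod3 and Tmem30a pairs). The third pair of Col12a1, 1440101_at, was at 1.80 (adjusted p = 0.111). In every Col12a1 pair the reference is the brightest probe only through the wild-type arrays.

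The Col12a1 pair with 1427391_a_at passed without each array in turn, and the 3 other calls did not. The Tmod3 pair did not pass without array 3 (0.138), 5 (0.0913) or 6 (0.124), nor the Tmem30a pair without array 1 (0.0881), 2 (0.127), 3 (0.141) or 4 (0.129), with the difference between -3.26 and -3.03 for the latter. The pair of Col12a1 with 1445751_at was lost without array 3 (0.141), 4 (0.119) or 6 (0.160), all as adjusted p. Cep162 came next, with 1442733_at minus its brightest probe at -1.36 (adjusted p = 0.303), followed by Arpp19 at -0.48 (0.353).

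The spread between the highest and lowest difference of a gene's probes had a median of 0.31 over the 60 neighbour genes and 0.19 over the 9010 genes with 2 or more probes. It was at least 1 in 5 neighbour genes (8.33%), which were Tmem30a at 3.19, Tmod3 at 2.69, Col12a1 at 2.07, Cep162 at 1.36 and Tpbg at 1.24, and in 55 genes in all (0.61%). In 3 genes, Tmod3, Tmem30a and Cep162, the brightest probe was within 0.2 of wild type while another differed by 0.5 or more.

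**Figure D4:**
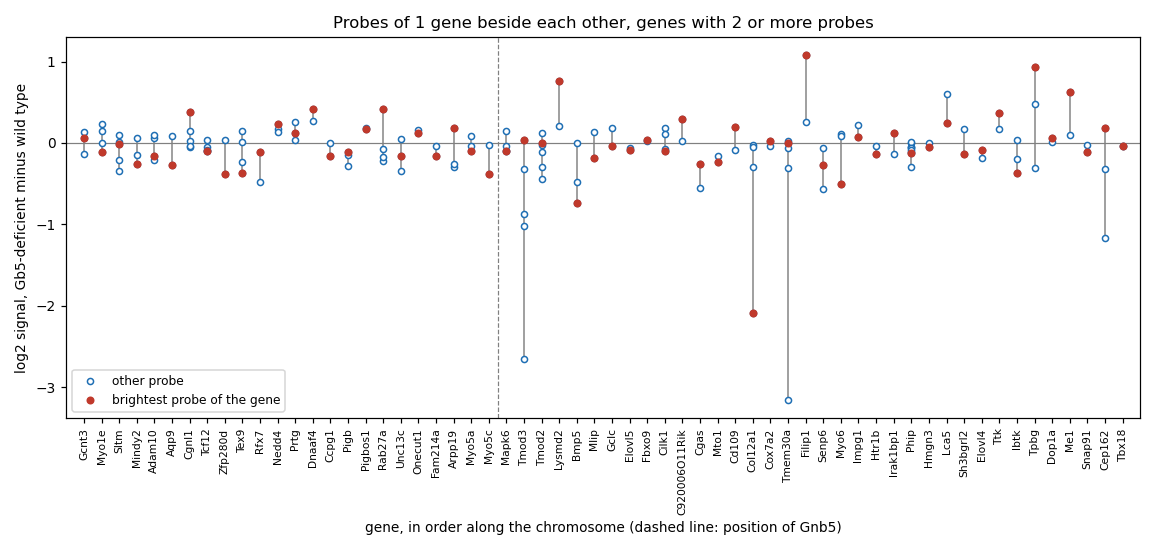
Each column is 1 of the 60 neighbour genes with 2 or more probes, in order along the chromosome, and each point the log2 difference of 1 probe (y axis). Red points are the brightest probe of the gene, open points the others, and the dashed line is the position of Gnb5. Tmem30a and Tmod3 span 3.19 and 2.69 with the brightest probe near 0, while in Col12a1 the brightest probe is the low one.

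With 1 probe per gene, the brightest, 92 neighbour genes were above the 30th percentile of 14075 tested and Col12a1 alone passed, of 5 genes or 0.0355% in all (limma adjusted p = 0.0054). The Col12a1 mean is above 4.70 through the wild-type arrays (6.63 against 4.54), and that of 4930429F24Rik through the Gb5-deficient arrays (5.64 against 4.24). With no filter the count was also 1, Col12a1 (adjusted p = 0.00471). It did not pass without array 6 (adjusted p = 0.0626), and 2 genes, Col12a1 and 4930429F24Rik, passed without array 4. With the mean of a gene's probes, Tmod3 passed in its place (-0.97, adjusted p = 0.0244).

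Of the other neighbours at higher coordinates, the non-coding RNA gene 5730403I07Rik at 2.06 Mb had the largest difference upward after 4930429F24Rik. Its probe read 4.55, 5.12 and 5.05 on wild-type arrays and 5.97, 6.70 and 6.18 on Gb5-deficient arrays (1.38, SE 0.22, limma adjusted p = 0.229). Cep162, which encodes a protein of the base of the cilium at 11.88 Mb, had 1442733_at at 7.60, 7.97 and 7.27 on wild-type arrays and 6.39, 6.25 and 6.69 on Gb5-deficient arrays (-1.17, adjusted p = 0.258). Both had separate groups. The other 2 Cep162 probes were at -0.32, separate, and 0.19.

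Me1, the cytosolic malic enzyme at 11.28 Mb, read 9.55, 9.68 and 9.72 on wild-type arrays and 10.57, 10.16 and 10.10 on Gb5-deficient arrays with 1416632_at (0.62, limma adjusted p = 0.386), and its other probe was at 0.10. Tpbg, the cell-surface trophoblast glycoprotein gene, read 10.70, 9.31 and 10.61 against 11.30, 11.36 and 10.75 with its brightest probe (0.93, adjusted p = 0.621). Wild-type array 2 was the low one, and the 2 other probes, at 0.48 and -0.31, overlapped. Lca5, a ciliary gene, was at 0.61 with 1430340_at (adjusted p = 0.434), and Mrap2, an accessory protein of melanocortin receptors, at 0.48. Both had separate groups.

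Cgas, the sensor of cytosolic DNA at 3.12 Mb, had 1440299_at lower at 5.79, 5.60 and 5.78 against 5.98, 6.38 and 6.46 (-0.55, limma adjusted p = 0.557) and another probe at -0.26. Senp6, a protease that removes SUMO, had 1445387_at at -0.57 with overlapping groups and its brightest probe at -0.28 with separate groups. Myo6, a motor that walks toward the minus end of actin, was at -0.50 on its brightest probe and at 0.11 and 0.08 on the others, all overlapping. Smaller separate differences upward were found for Slc17a5, the lysosomal sialic acid exporter (0.27), Ttk, a mitotic checkpoint kinase (0.36), and the RNA gene C920006O11Rik (0.30). Pgm3 (0.22), Bckdhb (0.21) and Gsta4 (0.12) were also separate and higher. Separate and lower were Ibtk on its brightest probe (-0.37), Mto1 on its brighter probe (-0.23), Dppa5a (-0.23), Tent5a (-0.21) and the dim Gsta2 probe (-0.09). No probe in this group passed.

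**Figure D5:**
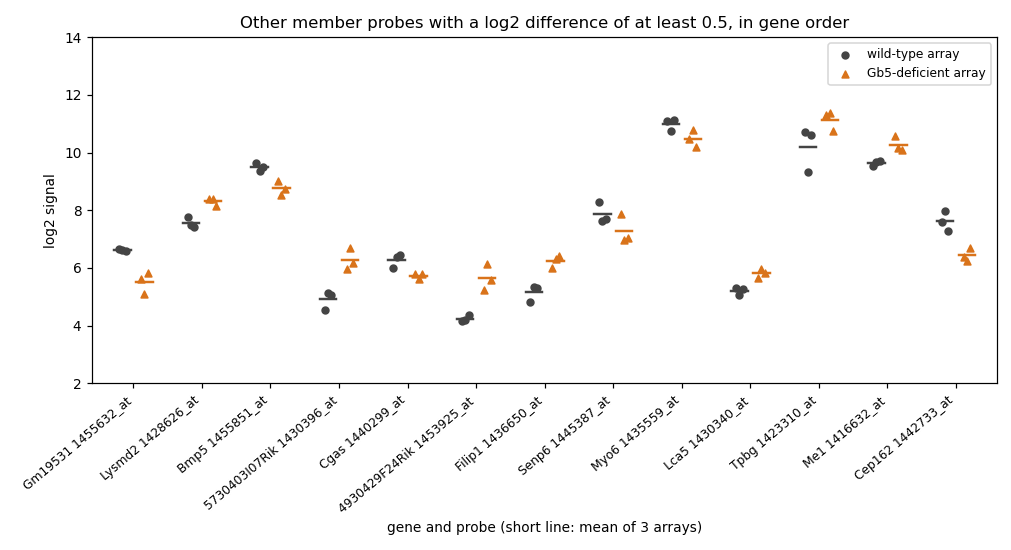
Signals by array (log2, y axis) for the 13 probes of other genes with a difference of at least 0.5, in gene order, with circles for wild type, triangles for Gb5-deficient and short lines for means of 3 arrays. Gm19531, Bmp5 and Cep162 are lower and Lysmd2, 5730403I07Rik, 4930429F24Rik and Filip1 higher in all Gb5-deficient arrays; Senp6 and Myo6 overlap.

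At lower coordinates no probe passed. The lowest was Rfx7, a transcription factor gene at -2.77 Mb, where 1460567_at read 8.64, 8.36 and 8.58 on wild-type arrays and 8.09, 7.90 and 8.13 on Gb5-deficient arrays (-0.48, limma adjusted p = 0.516). Its other probe was at -0.11. Nedd4, a ubiquitin ligase gene, was at 0.23 and 0.13 with separate groups and at 0.17 on a probe that overlapped. Tex9 had 2 of 4 probes with separate groups, at -0.37 and -0.24.

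Aqp9, a channel for water and glycerol, was at -0.27 on its brighter probe, with separate groups, and at 0.09 on the other. Zfp280d was at -0.38 and 0.03 and Mindy2, a deubiquitinase gene, at -0.26, -0.15 and 0.06, all with overlapping groups. Dnaaf4, an assembly factor of ciliary dynein, was at 0.42 with overlap and 0.28 without. Rab27a, a GTPase of secretory vesicles, was at 0.41 on its brightest probe, where array 5 read 8.85 and the other 5 arrays 6.45 to 7.36. Its 3 dim probes were at -0.08, -0.17 and -0.23, the last 2 with separate groups.

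Arranged by role, the 3 probes that passed fell in 3 different lists. Among 9 actin and myosin genes (31 probes), 1 probe was called lower (Tmod3) and 0 higher, with 0.02% of all probes called lower. Of the 31, 6 (19.4%) were separate and lower and 2 (6.45%) separate and higher, with 5.34% and 8.25% over all probes, and the median difference was -0.03. The 6 lower ones were 3 probes of Tmod3, 2 of Tmod2 and 1 of Myo5c. Among 9 genes of vesicles, secretion and synapses (21 probes), 1 was called lower (Tmem30a), with 5 (23.8%) separate lower, 1 (4.76%) higher and a median of -0.07. The 5 lower ones were 2 probes of Tmem30a, 2 dim probes of Rab27a and the dim Hcrtr2 probe. Among 10 measured genes of matrix, adhesion and cell surface (26 probes), 1 was called lower (Col12a1), with 2 (7.69%) separate in each direction, near the shares over all probes, and a median of -0.01.

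None of the other lists had a call, and the shares are again to be read beside 5.34% lower and 8.25% higher over all probes. The 15 transcription and chromatin genes (38 probes) had 3 (7.89%) separate lower, near that share, 0 higher and a median of -0.06. The 15 genes of glutathione, lipid and energy metabolism (24 probes) had 4 (16.7%) in each direction and a median of -0.07, and the 9 kinase, ubiquitin and cell cycle genes (24 probes) 2 (8.33%) lower, 4 (16.7%) higher and a median of 0.03. The 5 cilium genes (12 probes) had 4 (33.3%) lower, 2 (16.7%) higher and a median of 0.08. The 4 lower ones were 2 probes of Tex9 and 2 of Cep162. In all of these lists probes of the same gene are counted singly though they are not independent. Over all probes the median was 0.01.

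Non-coding genes with a difference of at least 1 were 3 of 12 (Gm19531, 5730403I07Rik and 4930429F24Rik), and protein-coding ones 5 of 97 (Tmod3, Col12a1, Tmem30a, Filip1 and Cep162). These 3 non-coding genes were each read by 1 probe, with mean signals between the 32.8 and 45.3 percentile of all probes. Shares by gene type over the whole series were not computed, so the counts are descriptions only.

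At the edges of the window, Gtf2a2 and Gcnt3 just inside the lower end were at 0.07 and at 0.06, 0.14 and -0.14, and Foxb1 and Bnip2 just outside at -0.04 and, over 8 probes, -0.23 to 0.51. Of the Bnip2 probes, the dim 1431731_at at 0.51 and 1441989_at at 0.36 had separate groups, and neither passed. At the higher end, Cep162, with the values already given, and Tbx18, a transcription factor gene at -0.04 on both probes, lay inside, while Nt5e at -0.26, 0.27 and -0.04 and Snx14 at 0.00 lay outside.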

How the data were processed

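The authors' deposited table holds 1 log2 value per probe and array for 6 arrays, already normalized; RMA and Partek are the tools named in the submitters' processing notes, without versions. RMA gives background-corrected, quantile-normalized log2 summaries, and a change shared by all transcripts is therefore removed. Scanner files, detection calls and scan dates were not analysed here. Of 45101 probes, 64 controls were left out, 34945 had 1 gene in the platform annotation, 932 several and 9160 none. Through Entrez identifiers, 34741 matched a RefSeq gene table (GRCm38.p6), which gave symbols and positions; 204 did not, and 2 probes naming a neighbour among several genes were left out. Distance is from the lowest coordinate of Gnb5 to that of the gene. The members and lists were chosen with earlier results of these data known.

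limma 3.58.1 in R 4.3.3 was fitted with an intensity trend, two-sided, Gb5-deficient minus wild type, with Benjamini-Hochberg adjustment over each fit: every probe (no filter), 1 probe per gene (brightest, mean above the 30th percentile) and, within each array, each other probe minus the gene's brightest. Intervals are 95% from the fit. The fits were tested on simulated data. The median SE was 0.12, and 3 arrays per genotype limit precision. Named genes are all within 1 Mb, all called, the 10 smallest unadjusted p in each direction, the genes with the most discordant probe pairs, the window's edges, and the largest of each role list; Cgas, Cox7a2 and others named with them were chosen after their values were seen. Alternatives were other variance models, array weights, thresholds, filters, normalizations, probe sets, window definitions and each array left out; size counts with an array left out or other scaling were added after seeing the data.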

Additional observations from a re-analysis of the deposited data

How the results depend on the processing

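No paired analysis was made, because the array labels do not show which littermates belong together. They number the wild-type arrays 1 to 3 and the Gb5-deficient arrays 4 to 6. Neighbour probes called numbered 3. They were 38 at an unadjusted threshold (17%, with 7.61% of all probes) and 2 to 4 with 1 array left out. A filter at the 50th percentile, which removes the Tmod3 and Col12a1 probes, left 1. Neighbour genes called numbered 1, or 20 unadjusted (21.7%, with 8.56% of all genes tested). They were 0 with the 50th percentile filter and 0 to 2 with an array left out (0 without array 6, 2 without array 4). Probe pairs called numbered 4, or 27 unadjusted (23.7%, with 7.16% of all pairs), and 1 to 3 with an array left out. With both probes above the 30th percentile they were 0 (limma adjusted p = 0.0786 for the Tmod3 and Tmem30a pairs). The 53 probes with separate groups became 66 to 92 (29.6% to 41.3%) with an array left out, since fewer arrays separate more easily. Over all probes the share was then 19.9% to 31.5%. A second quantile normalization gave 57 (39 lower and 18 higher), and subtracting array medians gave 54 (37 lower and 17 higher). Shares over all probes are not given for these settings. Among the probe, pair and gene differences recomputed, the only sign changes were in Col12a1 1427391_a_at, at -0.02, which ranged from -0.12 to 0.10 with an array left out (0.07 without array 3 and 0.10 without array 6). The causes were not tested. No detection calls were used, so dim probes may lie at background.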
